A study of Mus musculus with 4 samples.

Results

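Expression of 10 genes of the Notch and Hedgehog pathways was examined in LSK cells of *Bptf* cKO mice and *Bptf* f/f controls. The 10 genes are *Notch1*, *Notch2*, *Rbpj*, *Maml1*, *Hes1*, *Hes6*, *Nrarp* and *Dtx4* of the Notch pathway, and *Smo* and *Ptch1* of the Hedgehog pathway. They were chosen by symbol, and all 10 had a row among the 18598 genes listed. LSK cells were sorted from bone marrow as lineage-negative, SCA-1-positive and c-KIT-positive, the gate for blood stem cells and early progenitors. The data comprised 4 RNA-seq libraries, with 2 of each genotype, and each library held the LSK cells of 5 mice. The mice were on the C57BL/6 background and about 3 months old. All of them carried floxed *Bptf* alleles and had received pIpC, which raises interferon, and cells were sorted 10 days after cre induction. The cKO mice also carried *Mx1*-cre, whose promoter answers to interferon in many cell types, so the loss of BPTF and the presence of cre cannot be told apart in this comparison.

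Notch receptors are cut by proteases after a ligand on a neighboring cell binds them, and the freed intracellular part joins the DNA-binding protein RBPJ and a MAML coactivator to switch on genes such as *Hes1* and *Nrarp*. The pathway is best known in blood for the choice of the T cell lineage and, in the embryo, for the emergence of the first stem cells. Hedgehog ligands bind PTCH1, which otherwise holds the membrane protein SMO in check, and active SMO leads to GLI transcription factors that raise *Gli1* and *Ptch1* in turn.

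The libraries held 24875746 and 14091054 reads on listed genes in control replicates 1 and 2, and 30134742 and 14104526 in cKO replicates 1 and 2. *Bptf*, the targeted gene, was at 5520.4 and 5850.1 normalized counts in the controls and 3398 and 3319.9 in the cKO libraries, which is in the direction of the labels (limma adjusted p = 0.0439). The gate genes *Kit* (13634 to 17051 normalized counts) and *Ly6a* (726 to 1743) were present in all 4 libraries. Among 7 T cell markers, *Cd3d*, *Cd3e*, *Cd3g* and *Cd8a* had no row in the table, while *Cd4*, *Cd5* and *Lck* had one. *Lck* was at 533 and 434 normalized counts in controls 1 and 2 and at 562 and 343 in cKO 1 and 2. *Cd4* was at 126 and 90.1 against 79.9 and 50.8, and *Cd5* at no more than 14.0 in any library. Both libraries numbered 2 stood apart from both libraries numbered 1. *Xist* was at 15675 and 11843 normalized counts in control 2 and cKO 2 and at 0.775 and 3.25 in control 1 and cKO 1. The libraries numbered 2 also held Y-linked transcripts, at lower levels. *Ddx3y* was at 456 and 769 in control 2 and cKO 2 and at 1837 and 1835 in control 1 and cKO 1. *Eif2s3y*, *Kdm5d* and *Uty* were likewise lower, but present, in the libraries numbered 2. A list of 7 pluripotency transcripts summed to 833 and 1061 against 72.1 and 29.2 in the same order. Of these, *Pou5f1*, *Nanog*, *Sox2*, *Zfp42* and *Dppa5a* were at 0 in both libraries numbered 1. *Lin28a* went the other way in the controls, at 72.1 in control 1 and 9.70 in control 2, and was at 28.6 and 43.7 in cKO 1 and 2. The summed level of 5 myeloid markers ran from 2011 in control 2 to 23065 in control 1, and was 6775 and 3175 in cKO 1 and 2. The summed level of erythroid markers was lower in cKO cells, over 5 genes at 850.3 and 559.9 in controls 1 and 2 against 164 and 230.0 in cKO 1 and 2, and *Epor*, the erythropoietin receptor, was called lower by limma (adjusted p = 0.0443).

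A normalized count is the number of reads of a gene divided by a size factor of its library. After adding 1 and taking log2, limma compared the genotypes over 14858 genes, and a gene was called at an adjusted p under 0.05. None of the 10 genes was called by limma, against 0.370% of all tested genes called lower and 0.370% called higher. At an unadjusted p under 0.05, limma placed *Hes1* and *Smo* lower in cKO cells, 2 of 10 genes against 8.96% of all tested genes, and none of the 10 higher against 6.79%. The edgeR quasi-likelihood test on reads recovered from the table also called none of the 10, against 0.633% of all genes in either direction. The DESeq2 Wald test on the same reads called *Hes1* and *Smo* lower, against 3.36% of all genes with an adjusted p called lower and 2.18% called higher. In 4 of the 10 genes (*Notch1*, *Notch2*, *Hes1* and *Smo*) both cKO libraries lay below both controls, and in 2 (*Rbpj* and *Dtx4*) both lay above. Across all tested genes these shares were 23.8% and 23.2%. In bulk RNA, fewer cells of a type and less RNA per cell cannot be told apart, and this holds for every gene here. For a gene taken alone, exact two-sided permutation of 2 against 2 libraries has 0.333 as its smallest possible p.

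**Figure D1:**
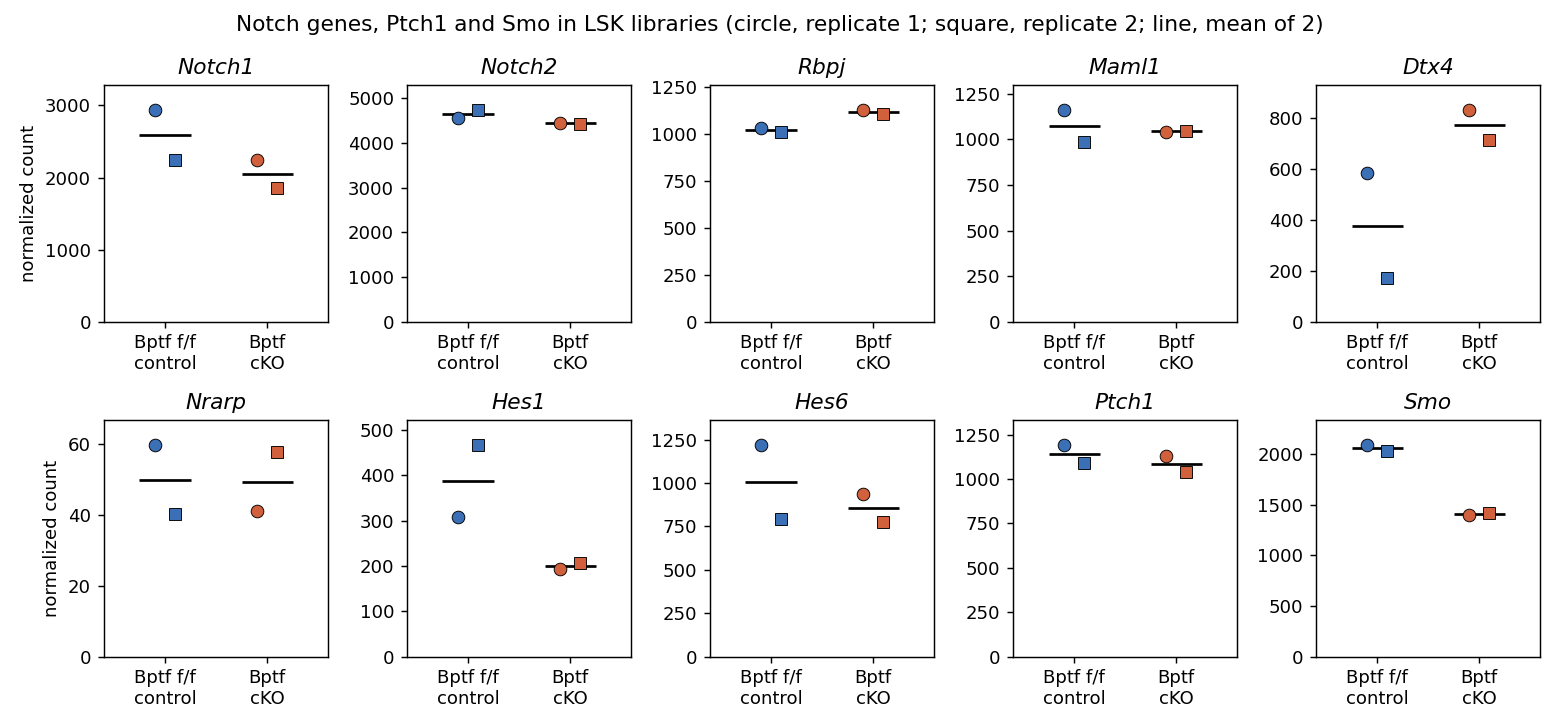
Normalized counts of the 10 genes in each LSK library, with a separate linear axis from 0 for every gene. Circles are replicate 1, squares replicate 2 and lines the mean of the 2 libraries; *Smo* shows tight pairs that are far apart, at 2087 and 2030.4 against 1398 and 1418, whereas the control points of *Dtx4* lie at 583 and 170.5.

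*Smo*, which encodes the seven-pass membrane protein that passes on the Hedgehog signal, was the gene whose libraries separated most cleanly. It was at 2087 and 2030.4 normalized counts in control replicates 1 and 2, and at 1398 and 1418 in cKO replicates 1 and 2. The gap between genotypes was many times the gap within either of them. In each genotype 1 library was high in *Xist* and the other was not, and any part of that difference in the *Smo* values was not tested. The mean was 2059 ± 40.3 (SD, n = 2 libraries) in controls and 1408 ± 14.2 (SD, n = 2) in cKO cells, a difference of -31.6%. On the log2 scale the fold change was -0.55 (standard error 0.095, 95% confidence interval -0.79 to -0.31, limma adjusted p = 0.0859). DESeq2 gave -0.55 with an adjusted p of 0.00240, and edgeR gave an adjusted p of 0.0919. Over 16 alternative settings of the analysis, the fit with a replicate block not among them, the log2 fold change of *Smo* stayed between -0.57 and -0.50, while its adjusted p ran from 0.00240 to 0.660 and was under 0.05 in 1 of them. The highest of these values came with 3 libraries, and DESeq2 no longer called *Smo* when any single library was left out. The ranges of adjusted p given for other genes likewise leave out the block. The erythroid sum was lower in the same libraries as *Smo*, and its part in the *Smo* difference was not tested.

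*Smo* spans bases 29735503 to 29761365 of chromosome 6, plus strand (GRCm38, GENCODE vM21). The 250 bases before its start in RefSeq (GRCm38.p6, chr6:29735247-29735496, plus strand) are shown because it is the member with the clearest difference between genotypes. Matches to 4 motifs would be in capitals: the RBPJ core TGGGAA, the HES N-box CACNAG, the GLI core CCACCCA and the AP1 motif TGANTCA, each sought on both strands. None of these letters was found in this window.

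Smo: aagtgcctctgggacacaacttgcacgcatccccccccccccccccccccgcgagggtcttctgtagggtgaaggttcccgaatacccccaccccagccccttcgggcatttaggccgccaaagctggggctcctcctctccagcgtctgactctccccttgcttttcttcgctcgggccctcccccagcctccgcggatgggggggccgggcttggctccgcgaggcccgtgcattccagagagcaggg

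Promoter windows of this length numbered 32851 in all. Of these 21.6% held the RBPJ core, 36.7% the N-box, 8.11% the GLI core and 6.75% the AP1 motif. The table of promoters held 8 of the 10 genes and has no entry for *Hes1* and *Dtx4*.

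*Ptch1*, which encodes the Hedgehog receptor and is itself a target of the pathway, was at 1191 and 1092 normalized counts in the controls and 1129 and 1038 in cKO cells. The genotypes overlapped. In limma the difference was -0.075 on the log2 scale (95% confidence interval -0.37 to 0.22, standard error 0.12, adjusted p = 0.822). *Gli1*, the other classical readout of the pathway, was close to the lower limit of the test, with 11 and 6 reads in the controls and 20 and 13 in cKO cells (log2 fold change 0.80, limma adjusted p = 0.550). *Gli3* was at 18.6 and 18.0 normalized counts in the controls and 18.8 and 29.6 in cKO cells. The ligand genes *Shh* and *Dhh* had no row in the table, and *Ihh* was under the limit of 10 normalized counts for testing. *Sufu*, which holds GLI proteins back, was at 1703 and 1709 against 1596 and 1556 (log2 fold change -0.11, limma adjusted p = 0.632).

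Among the other genes that carry the signal at the membrane, *Evc* and *Evc2* were also called lower by DESeq2. Their proteins act together at the base of the primary cilium as partners of SMO, and the genes lie side by side in opposite orientation on chromosome 5. *Evc* was at 47.3 and 169 normalized counts in control replicates 1 and 2, and at 16.2 and 22.6 in cKO replicates 1 and 2. *Evc2* was at 53.5 and 183 in the controls and at 22.7 and 28.2 in cKO cells. Both genes were low, with 16 reads of *Evc* in cKO replicate 2, and control 2 was far above control 1 for both. The log2 fold changes were -2.17 for *Evc* (standard error 0.66, limma adjusted p = 0.227, DESeq2 adjusted p = 0.0237) and -1.93 for *Evc2* (standard error 0.63, limma adjusted p = 0.251, DESeq2 adjusted p = 0.0377). Without control replicate 2 the limma values were -1.26 and -1.05 and DESeq2 called neither gene (adjusted p = 0.838 and 0.878). Over the alternatives without a block the adjusted p ran from 0.00363 to 0.838 for *Evc* and from 0.00529 to 0.878 for *Evc2*. *Grk2*, a kinase of active SMO and the highest transducer gene per length at 435 TPM (reads scaled by exon length and library total), overlapped between genotypes, with 12538 and 9591 normalized counts in controls and 9817 and 10098 in cKO cells.

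**Figure D2:**
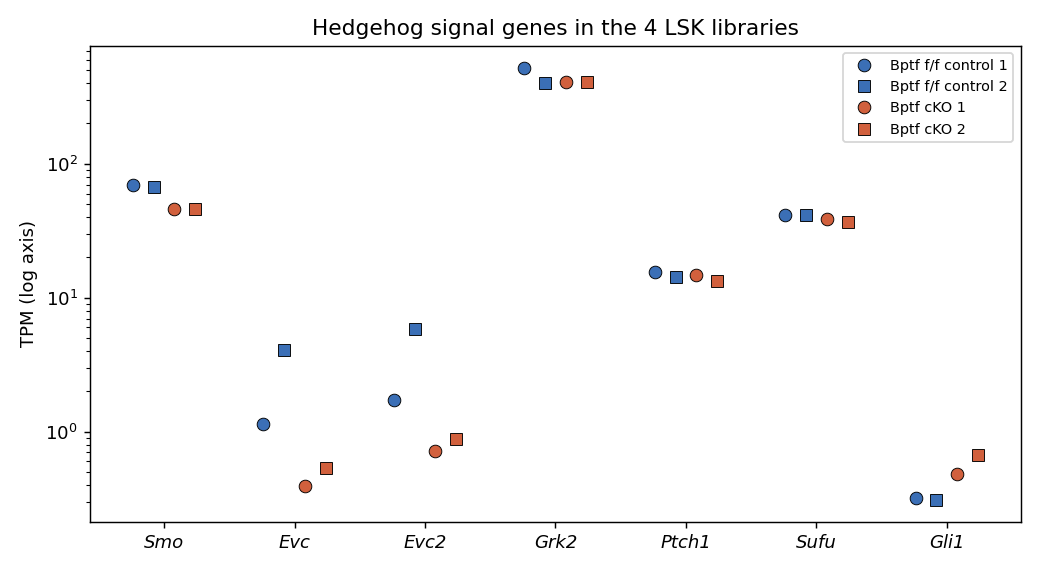
Levels of 7 Hedgehog signal genes in the 4 LSK libraries, in TPM on a log axis, so that genes of different length can be compared. *Smo*, *Evc* and *Evc2* have both cKO points below both control points, the controls of *Evc* and *Evc2* are spread, *Grk2* and *Ptch1* overlap between genotypes, and *Gli1* lies under 1 TPM in all 4 libraries.

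Of the receptors, *Notch2* was the most abundant per length, at a mean of 77.8 TPM over the 4 libraries, and *Notch1* followed at 30.2 TPM. *Notch1*, the receptor that drives the T cell choice, was at 2932 and 2249 normalized counts in control replicates 1 and 2, and at 2237 and 1859.6 in cKO replicates 1 and 2. Both cKO libraries were below both controls, but the higher cKO library and the lower control were nearly equal. The log2 fold change was -0.33 (standard error 0.17, 95% confidence interval -0.76 to 0.095, limma adjusted p = 0.431). *Notch2* was at 4545 and 4726 in the controls and 4453 and 4412 in cKO cells. For *Notch2* limma gave a log2 fold change of -0.064 (standard error 0.087, adjusted p = 0.793), and the 95% confidence interval from -0.28 to 0.16 bounds the difference more tightly than that of any other of the 10 genes. *Notch3* was low, at 116 and 112 normalized counts against 66.3 and 35.3 (limma log2 fold change -1.22, adjusted p = 0.232). *Notch4* had 17 to 66 reads per library, and its genotypes overlapped. *Notch1* shares 7.50% of its exon bases with *0610009E02Rik* and *Notch2* shares 5.02% with *Gm42820*, and both of those genes were under the limit for testing.

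Most genes that act on the receptors before the nucleus had small differences between genotypes. *Adam10*, the protease that makes the first cut after ligand binding, was the highest of 14 glycosylation and cleavage genes per length (240.1 TPM), with a log2 fold change of 0.00046 (95% confidence interval -0.22 to 0.22). The log2 fold changes of these 14 genes had a median of 0.012, and none was called by limma, edgeR or DESeq2. The shares of all genes called were 0.370% lower and 0.370% higher in limma, 0.633% in edgeR, and 3.36% lower and 2.18% higher in DESeq2. Of the ligands, *Jag2* was the highest at 19.3 TPM, and its cKO libraries differed from each other, at 814 and 498 normalized counts against 798 and 794 in controls. *Dlk1*, a noncanonical ligand that lacks the DSL domain of the others and is known as an imprinted gene, was at 38.8 and 37.4 in the controls and 104 and 95.9 in cKO cells. It was called higher by DESeq2 (adjusted p = 0.0432), while limma gave a log2 fold change of 1.37 (standard error 0.28, adjusted p = 0.119). The adjusted p of *Dlk1* ran from 0.0432 to 1.00 over the alternatives without a block, from at least 27 reads per library, and no fit without any single library called it. *Dll4*, an endothelial and thymic ligand, had between 4 and 34 reads per library and was at 26.4 and 16.6 normalized counts in controls against 2.60 and 7.06 in cKO cells (limma adjusted p = 0.260).

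*Rbpj*, which encodes the DNA-binding partner of every Notch receptor, was at 1028 and 1010.4 normalized counts in the controls and 1124 and 1102 in cKO cells. Both cKO libraries were higher by a small step, with a log2 fold change of 0.13 (standard error 0.10, 95% confidence interval -0.14 to 0.39, limma adjusted p = 0.626). *Maml1*, the coactivator, was at 1159 and 984 in the controls and 1041 and 1045.5 in cKO cells, with both cKO values inside the range of the controls (log2 fold change -0.033, 95% confidence interval -0.35 to 0.29, limma adjusted p = 0.938). *Maml1* was at -0.033 with the deposited scaling and at 0.018 with libraries recentred on their medians, so no direction is given. *Maml2* was at 637 and 841 against 524 and 554 (log2 fold change -0.44, limma adjusted p = 0.314). *Ep300*, the acetyltransferase that MAML proteins recruit, was the highest of the nuclear complex genes per length at 57.3 TPM, and *Ctbp1* was the highest corepressor gene at 284 TPM. Of the 6 nuclear complex genes and 6 corepressor genes tested, none was called by any of the 3 tests. Of all genes, limma called 0.370% lower and 0.370% higher, edgeR 0.633% in either direction, and DESeq2 3.36% lower and 2.18% higher. At such shares a count of 0 in lists this short says little about these roles.

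The 250 bases before the upstream RefSeq start of *Rbpj* (GRCm38.p6, chr5:53590096-53590345, plus strand) hold the RBPJ core on each strand, and are shown because *Rbpj* alone among the 8 genes had that motif in its windows. Capitals mark the cores, from 149 to 144 and, on the opposite strand, from 65 to 60 bases before the start. No match in any of the 8 genes overlapped a match of another motif. A match of letters is a description only and does not show binding.

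Rbpj: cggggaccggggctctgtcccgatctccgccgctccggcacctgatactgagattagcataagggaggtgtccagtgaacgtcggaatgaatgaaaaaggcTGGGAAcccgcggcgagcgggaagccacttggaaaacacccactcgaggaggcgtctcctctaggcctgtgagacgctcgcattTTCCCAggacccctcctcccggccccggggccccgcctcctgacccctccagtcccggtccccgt

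*Hes1* (chromosome 16, bases 30064384 to 30067796, plus strand), a repressor of the bHLH class and the best known direct target of Notch, was at 309 and 467 normalized counts in control replicates 1 and 2, and at 194 and 206 in cKO replicates 1 and 2. The cKO libraries were close together and below both controls, while the controls differed from each other 1.51-fold. The mean was 388 ± 112 (SD, n = 2 libraries) in controls and 199.8 ± 8.71 (SD, n = 2) in cKO cells, a difference of -48.5%. The log2 fold change was -0.92 (standard error 0.24, 95% confidence interval -1.54 to -0.31, limma adjusted p = 0.182). DESeq2 called *Hes1* lower (log2 fold change -0.95, adjusted p = 0.0423) and edgeR did not (adjusted p = 0.190). Over the 16 alternative settings without a replicate block the log2 fold change lay between -1.23 and -0.63 and the adjusted p between 0.0423 and 0.755, under 0.05 in 1 of them, and DESeq2 lost the call when any single library was left out. *Hes1* had between 146 and 399 reads per library.

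The summed level of immediate-early genes had the same order of libraries as *Hes1*, though not every such gene did. The sum over 9 of them, including *Fos*, *Jun* and *Egr1*, was 68945 and 166218 normalized counts in control replicates 1 and 2 and 23972 and 28026 in cKO replicates 1 and 2. DESeq2 called 7 of the 9 lower, against 3.36% of all genes, and limma none, against 0.370%. *Egr1* and *Atf3* were not called by DESeq2 (adjusted p = 0.377 and 0.600). The stem cell gene *Procr* had that order as well, at 749.5 and 1289 in controls and 510.2 and 614 in cKO cells (limma adjusted p = 0.263). The erythroid sum was also lower in both cKO libraries, as given above. The part of these genes in the *Hes1* difference was not tested.

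*Hes6*, a relative of *Hes1* that is known to act against HES1, was the highest of the 10 genes per length at 95.4 TPM. It was at 1218 and 794 normalized counts in the controls and 934 and 777 in cKO cells, so the genotypes overlapped and replicate 1 was the higher library in both. The log2 fold change was -0.21 (standard error 0.23, 95% confidence interval -0.79 to 0.38, limma adjusted p = 0.737). *Hes5* was at 28.7 and 15.2 against 22.7 and 11.3 normalized counts, *Hey1* was under the limit for testing, and *Hes7*, *Hey2* and *Ptcra* had no row in the table. *Gata3* and *Tcf7*, T cell regulators downstream of Notch, overlapped between genotypes. *Tcf7* was at 240.3 and 30.5 in control replicates 1 and 2 and at 428 and 66.3 in cKO replicates 1 and 2, higher in cKO cells within each replicate number. *Gata3* was at 281 and 392 in controls and 245.7 and 418 in cKO cells.

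*Nrarp*, a feedback inhibitor that binds the Notch complex, was the lowest of the 10 genes at 3.56 TPM, with 29 to 77 reads per library. It was at 59.7 and 40.2 normalized counts in control replicates 1 and 2 and at 40.9 and 57.8 in cKO replicates 1 and 2, so its higher library was replicate 1 in controls and replicate 2 in cKO cells. The exact 95% Poisson interval of a library, which covers counting error only, reached from 26.9 to 57.7 in control 2 and from 41.5 to 78.5 in cKO 2. The log2 fold change of -0.0091 has a 95% confidence interval from -0.98 to 0.96 (limma adjusted p = 0.995) and was 0.042 with libraries recentred on their medians. A change of nearly 2 times either way was therefore not excluded, given the low reads and the spread between libraries. Antisense *Gm38287*, which has no row in the table, covers 79.4% of the *Nrarp* exon bases, and the strand setting of the counting is not given in the sources used here, so reads of the pair may not be separable.

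*Dtx4* (chromosome 19, bases 12466338 to 12501454, minus strand), a member of the Deltex family of ubiquitin ligases that bind Notch, had the largest spread. It was at 583 and 170.5 normalized counts in control replicates 1 and 2 and at 829 and 714 in cKO replicates 1 and 2. Both cKO libraries were above both controls, but control 1 was 3.42-fold above control 2, a wider gap than from control 1 to either cKO library. In limma the log2 fold change came to 1.28 (standard error 0.56, 95% confidence interval -0.14 to 2.71, limma adjusted p = 0.362). The value rests on control replicate 2. Without it the log2 fold change was 0.40 (limma adjusted p = 0.368), and without control replicate 1 it was 2.17 (limma adjusted p = 0.0307). The adjusted p of *Dtx4* over the alternatives ran from 7.66e-09, in DESeq2 without control replicate 1, to 1.00. *Pax5*, the transcription factor that fixes the B cell lineage, was at 1709.9 and 410.2 normalized counts in control replicates 1 and 2 and at 902 and 504 in cKO replicates 1 and 2. *Cd79a*, a chain of the B cell receptor complex, was at 1166 and 209 in the controls and 629 and 385 in cKO cells. Control 2 was the lowest library for both markers as it was for *Dtx4*, but control 1 was the highest for both, and the part of B-lineage RNA in the *Dtx4* values was not tested. *Ms4a1*, a marker of later B cells, was at no more than 9.70 normalized counts in any library.

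*Dtx3*, of the same family and the highest of the turnover genes at 253 TPM, was at 4959 and 3634 normalized counts in the controls and 2673 and 2802 in cKO cells. All 3 tests gave a lower value in cKO cells, with a log2 fold change of -0.63 in limma (standard error 0.16, adjusted p = 0.179) and a DESeq2 adjusted p of 0.0191. The adjusted p ran from 3.04e-04 to 0.616 over the alternatives of *Dtx3*, and in DESeq2 its call was lost without control replicate 1 and without either cKO library. *Dtx3* and *Dtx4* thus had fold changes of opposite sign, although neither was called by limma.

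**Figure D3:**
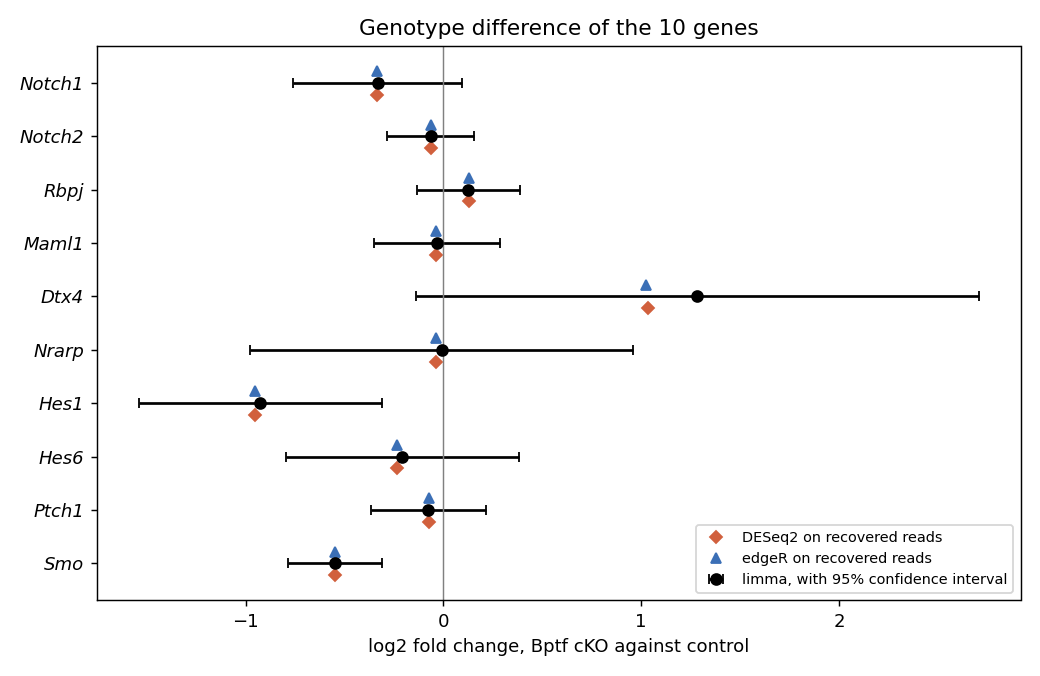
Log2 fold change of the 10 genes in *Bptf* cKO against control LSK cells. Black circles are limma values with 95% confidence intervals, triangles edgeR and diamonds DESeq2 on recovered reads; only the intervals of *Hes1* and *Smo* exclude 0, and the interval of *Dtx4* is the widest.

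The wider Notch list held 60 genes, of which 52 could be tested, and the wider Hedgehog list held 30 symbols, of which 20 could be tested. The Hedgehog list counts *Adrbk1* and *Grk2*, names of the same gene, and only *Grk2* had a row. Of the 52 Notch genes limma called 0 lower and 0 higher, and edgeR likewise called 0. DESeq2 called *Hes1* and *Dtx3* lower and *Dlk1* higher, against 3.36% and 2.18% of all genes. At an unadjusted p under 0.05 in limma, 5 were lower and 3 higher, close to the 8.96% and 6.79% of all tested genes. The libraries of the genotypes did not overlap for 12 Notch genes that were lower and 13 that were higher, close to the background of 23.8% and 23.2%, and the median log2 fold change was -0.031 against 0.0010 for all tested genes. Of the 20 Hedgehog genes limma and edgeR called 0, and DESeq2 called *Smo*, *Evc* and *Evc2* lower and 0 higher, to be read against the same 3.36% and 2.18%. Of these 20 genes 4 had an unadjusted limma p under 0.05, all lower, against 8.96% lower and 6.79% higher of all genes. Without overlap 6 were lower and 5 higher, against 23.8% and 23.2%, and the median was -0.068. Since the members were chosen with results known, these counts and medians are descriptions.

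**Figure D4:**
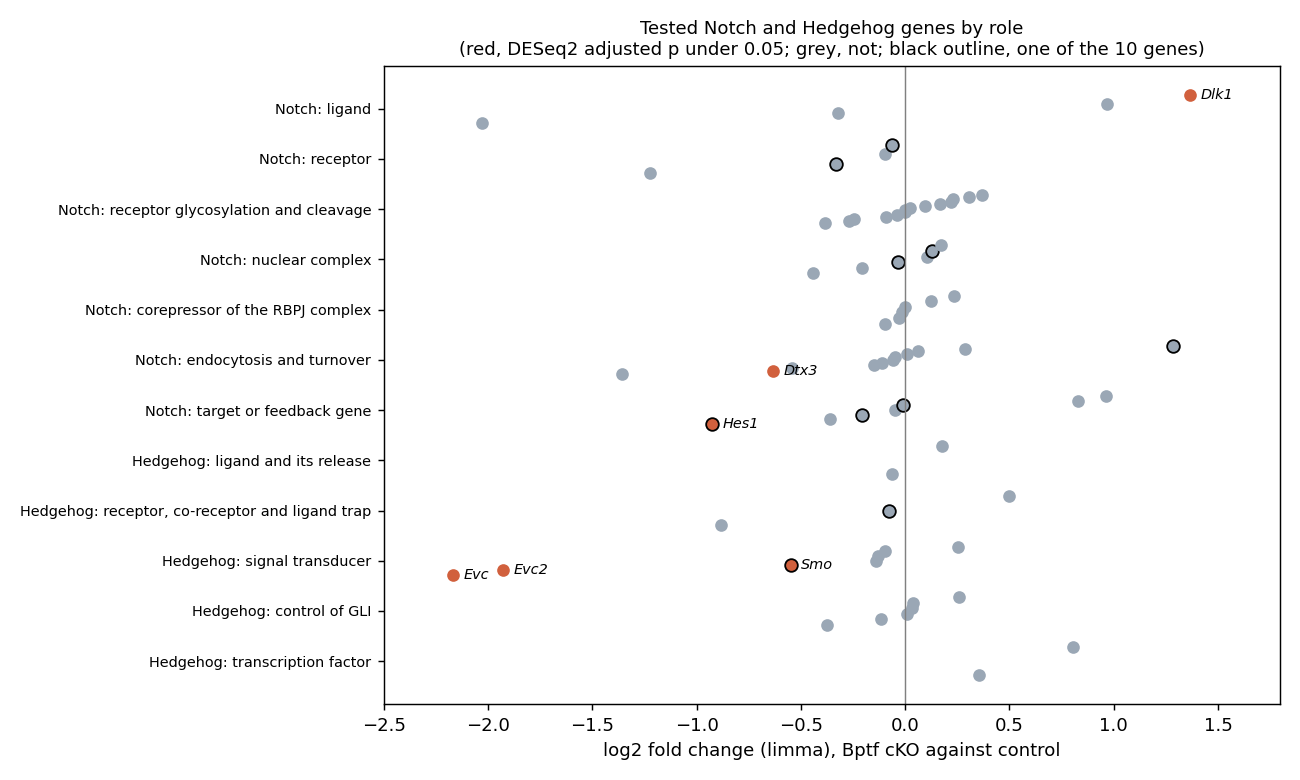
Log2 fold change (limma) of each tested Notch and Hedgehog gene in *Bptf* cKO against control LSK cells, in rows by role. Red points are the 6 genes with a DESeq2 adjusted p under 0.05, grey points the others, and black outlines mark the 10 genes; glycosylation, cleavage and corepressor genes sit between -0.38 and 0.37, whereas *Evc* and *Evc2* lie near -2.

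By level per length over the 4 libraries, the order of the 10 genes was *Hes6* (95.4 TPM), *Notch2* (77.8), *Smo* (57.1), *Maml1* (35.4), *Notch1* (30.2), *Hes1* (26.7), *Dtx4* (20.3), *Rbpj* (15.5), *Ptch1* (14.5) and *Nrarp* (3.56). The ranges of *Hes6* and *Notch2* overlapped across libraries, as did each neighboring pair from *Maml1* down to *Ptch1*. *Notch2* and *Smo*, *Smo* and *Maml1*, and *Ptch1* and *Nrarp* were separated in all libraries.

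The genes closest to *Hes1* and *Smo* in pattern were found by the distance between log2 values centred on each gene's mean over the 4 libraries, among the 10815 genes whose mean reached 100 normalized counts. For *Hes1* they were *Dnajb4*, *Phf11b*, *Prkcq*, *Arrdc3* and *C1qtnf6*, at distances of 0.064 to 0.14 on the log2 scale. *Dnajb4*, the closest, was at 754 and 1109 normalized counts in controls and 469 and 521 in cKO cells. For *Smo* they were *Hdac11*, *Hlcs*, *Gcdh*, *Herc3* and *Dnaaf3*, at distances of 0.035 to 0.047, and *Hdac11* was at 276 and 269 in controls and 179 and 185 in cKO cells. With 4 libraries many genes share such a pattern, and closeness is a description.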

How the data were processed

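The authors deposited a signal per gene and library, namely read counts divided by a size factor, beside their own comparison (mean, log2 fold change, standard error, statistic and p-values), which was not used. The submitters' processing notes name HISAT2, featureCounts and DESeq2 and the builds GRCm38 and mm10, and versions, annotation and strand setting are not given in the sources used here. All values (100%) were whole multiples of a step per library within 0.05 reads, so reads were recovered. Listed genes have at least 11 reads over the 4 libraries.

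Normalized counts plus a pseudocount of 1 were taken to log2 for 14858 genes (mean 10 or more) and compared with limma 3.58.1 (R 4.3.3, mean-variance trend, genotype as only factor, two-sided, Benjamini-Hochberg adjustment). Alternatives were edgeR 4.0.16 and DESeq2 1.42.0 on recovered reads, pseudocounts of 0.5 and 10, no filter, a mean of at least 50, recentring, quantile normalization, a replicate block and each library left out. DESeq2 with a library left out was added after the data were seen. On simulated data with 200 of 14858 genes changed by 1 on the log2 scale, limma, edgeR and DESeq2 recovered 98.5%, 98.0% and 95.5% of them. These shares describe the simulated data only, and do not say how often such a change would be found in these libraries. Among the 10 genes, limma did not call *Hes1* at -0.92 (adjusted p = 0.182) or *Dtx4* at 1.28 (adjusted p = 0.362). TPM was computed from recovered reads and the summed exon length of GENCODE vM21, for 98.2% of listed genes. Promoters came from RefSeq (GRCm38.p6). Named genes were the 10, other list genes called by any test, the highest gene per length of each role, and the 5 nearest to *Hes1* and to *Smo*; other genes were named after their values were seen. The members and lists were chosen with earlier results of these data known. Summaries used Python 3.11.15, pandas 2.3.3 and numpy 2.4.6. A result of the B cell marker list is not reported here.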

Additional observations from a re-analysis of the deposited data

How the results depend on the processing

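Libraries of the same replicate number deviated together from their group means (correlation 0.452 over the tested genes, with 2 numbers only), but no label says what a number marks. With the replicate block limma called 3 of the 10 genes lower (*Notch1*, *Hes1* and *Smo*, adjusted p = 0.0292, 0.00551 and 0.00230) and 1 higher (*Dtx4*, 0.00768), 5 Notch list genes lower (with *Notch3*, *Maml2* and *Dtx3*) and 3 higher (with *Dlk1* and *Tcf7*), 3 Hedgehog genes lower (with *Evc* and *Evc2*), and 1242 of all genes lower and 896 higher, against 55 and 55 without it. DESeq2 on recovered reads called 2 of the 10 lower, 2 Notch list genes lower and 1 higher, 3 Hedgehog genes lower, and 490 of all genes lower and 318 higher; the cause was not tested. With each library left out, where a lone library is assumed to vary like the others, limma or DESeq2 called 0 to 1 of the 10 genes higher (*Dtx4*, without control replicate 1) and 0 lower, 0 to 1 Notch list genes lower and 0 to 1 higher, and 0 to 2 Hedgehog genes lower. Of all genes limma then called 0 to 41 lower and 1 to 76 higher, the fewest without either cKO library. DESeq2, added after the data were seen, called 241, 291, 127 and 142 lower and 231, 206, 110 and 83 higher without control 1, control 2, cKO 1 and cKO 2. Recentring gave 0.018 for *Maml1* and 0.042 for *Nrarp* and quantile normalization 0.11 for *Nrarp*, all opposite in sign to the main value. With a library left out, limma gave -0.15 to 0.084 for *Maml1*, -0.52 to 0.10 for *Hes6* and -0.29 to 0.27 for *Nrarp*. DESeq2 without control replicate 1 gave 0.083 for *Maml1*, 0.11 for *Hes6* and 0.29 for *Nrarp*, and without cKO replicate 1 gave 0.21 for *Nrarp*. Of the alternative values of the 10 genes, 150 kept their sign and side of the threshold, 11 changed sign and 8 passed the threshold. The 2 libraries per genotype limit every gene, and counting error limits *Nrarp*, *Evc*, *Evc2*, *Dlk1* and *Gli1*.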
